A study of Homo sapiens with 15 samples.

Results

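The endoplasmic reticulum (ER) chaperones, folding enzymes and ER-associated degradation genes described here are 49 genes, given by 50 symbols of which SELENOS and VIMP name the same gene. They were matched by symbol to the Ensembl identifiers of a table of 60664 genes, and 48 of the 49 reached at least 1 TPM (a share of the library's transcripts corrected for gene length) in at least 3 of the 15 libraries. DERL3, a derlin of the degradation channel, was listed at 0 TPM in every library and is named without a comparison.

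Proteins bound for secretion or for membranes enter the ER through the SEC61 channel, where chaperones hold them, lectins read their sugar chains and oxidoreductases form their disulfide bonds. Chains that fail to fold are drawn back to the cytosol and destroyed, a route called ER-associated degradation. When unfolded chains build up, the sensors IRE1 (gene ERN1), PERK (gene EIF2AK3) and ATF6 raise the transcription of these same genes, which is called the unfolded protein response and is known to be active in many carcinomas, those of the colon included.

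The study asked how the transcriptome of colorectal cancer cells changes under extracts of oil production waste products (OPWPs), the polyphenol-rich remains of olive milling. HCT116 cells, an established line from a human colorectal carcinoma, were either untreated (CTR) or kept for 72 h with 0.0154 mg/mL of an extract or of hydroxytyrosol (HTyr), the main phenol of such extracts. The waste came from Apulia (extract AE), from Tuscany (TE) and from Sicily (SE). All 5 groups held 3 libraries of poly(A) RNA, called biological replicates in their titles, and all shared the same line, so the results describe 1 cell line at 1 dose and 1 time. The extracts are mixtures and were matched to HTyr by mass, not by their HTyr content.

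Some limits bear on every value. The titles of the Tuscany and Sicily samples carry letter codes that are swapped against the letters of the table's columns. The sample descriptions were followed, and the study's own table of changed genes names its TE and SE columns as they do. If the title codes were right, TE and SE would change places. TPM keep no sequencing depth, so depth is unknown and no counting interval is given. A lower TPM is a smaller share of the RNA of a culture, and in bulk RNA fewer cells of a type and less RNA per cell cannot be told apart. The libraries held 13653 to 14034 genes at 1 TPM or more, and mitochondrially encoded transcripts took 15.6% to 18.7% of the TPM of untreated and 17.0% to 21.5% of treated libraries. Of 10 colorectal epithelial markers 7 passed the filter, with EPCAM at 270 to 346 TPM, while CDX1, VIL1 and CEACAM5 were at or near 0. The summed TPM of the epithelial markers was 4404 to 4516 in untreated and 2402 to 3276 in treated libraries. KRT8, KRT18 and KRT19 made up most of it, with means of 1563, 1204 and 1072 TPM untreated. They and CLDN4 were lower in all 12 treated libraries than in any untreated one, and CDH1 in 9 of the 12. Group means of EPCAM were 327 TPM untreated and 290 to 327 treated, and those of CDX2 4.65 and 5.02 to 5.37. Of 12 markers of other cell types only CD68 (1.58 to 17.3 TPM) and COL1A1 (4.06 to 8.53 TPM) passed, with PTPRC, PECAM1, CD3E and CDH5 at or near 0, and the sum over the 12 was 23.4 to 25.7 in untreated and 7.08 to 15.1 in treated libraries. These values moved with the treatments, and their part in the results below was not tested.

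A gene was called changed where limma, fitted across all 14899 genes that passed the filter, gave a Benjamini-Hochberg adjusted p under 0.05 and a change of more than 1.5-fold in either direction on the log2(TPM + 0.5) scale, the thresholds of the study. No member rose under any treatment, and 18 of the 48 fell with at least 1. Across all genes tested, 14.2% fell with at least 1 treatment and 19.7% rose with at least 1. Under limma at an unadjusted p under 0.05, with no limit on the fold, 27 members were lower and 3 higher under AE, where 17.2% and 30.4% of all genes were. TE gave 27 and 3 (18.1% and 25.3% of all genes), SE 26 and 5 (22.7% and 34.3%) and HTyr 39 and 1 (25.9% and 21.6%). The log2 fold changes of the higher members stayed under the threshold, the largest being 0.49 for SDF2 with SE.

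With AE 6 members fell and 0 rose, where 5.81% and 10.7% of all genes did. TE gave 7 lower and 0 higher members, against 5.26% and 7.46% of all genes. SE gave 15 lower and 0 higher members, against 11% and 17%. HTyr also gave 15 lower and 0 higher members, against 8.45% and 7.8%. In the mean of the 4 treatments 10 members fell and 0 rose, against 7.43% and 10.4%. The share of members that fell thus stood above that of all genes in each comparison, and the share that rose below it. The median log2 fold change of the members was -0.21 for AE, -0.21 for TE, -0.25 for SE and -0.42 for HTyr, where that of all genes was 0.09, 0.05, 0.09 and -0.04. After median-ratio scaling of the libraries, the calls over all genes were 1200 higher and 1160 lower with AE in place of 1601 and 865, and 2000 and 2053 with SE in place of 2532 and 1636. With TE they were 969 and 923 in place of 1112 and 784, and with HTyr the larger side turned, as it did with SE, to 1282 higher and 1139 lower from 1162 and 1259. Under that scaling the member medians were -0.31, -0.25, -0.36 and -0.39.

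The number of members in which all 12 treated libraries lay below all 3 untreated ones was 19 of 48, against 11.8% of all genes. None had all 12 above, against 15.3% of all genes. HSPA5, DNAJB9, MANF, EIF2AK3, EDEM1 and HERPUD1, 6 genes, were called lower in each of the 4 comparisons, which share the untreated libraries, as were 3.19% of all genes. Under both other scalings, median-ratio and quantile, FKBP14 was called with AE too, which made 7. The 6 are an Hsp70 chaperone, its J-domain partner, a secreted survival factor, a stress sensor and both a mannosidase-like protein and a membrane protein of degradation, so they come from 3 of the 8 roles.

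**Figure D1:**
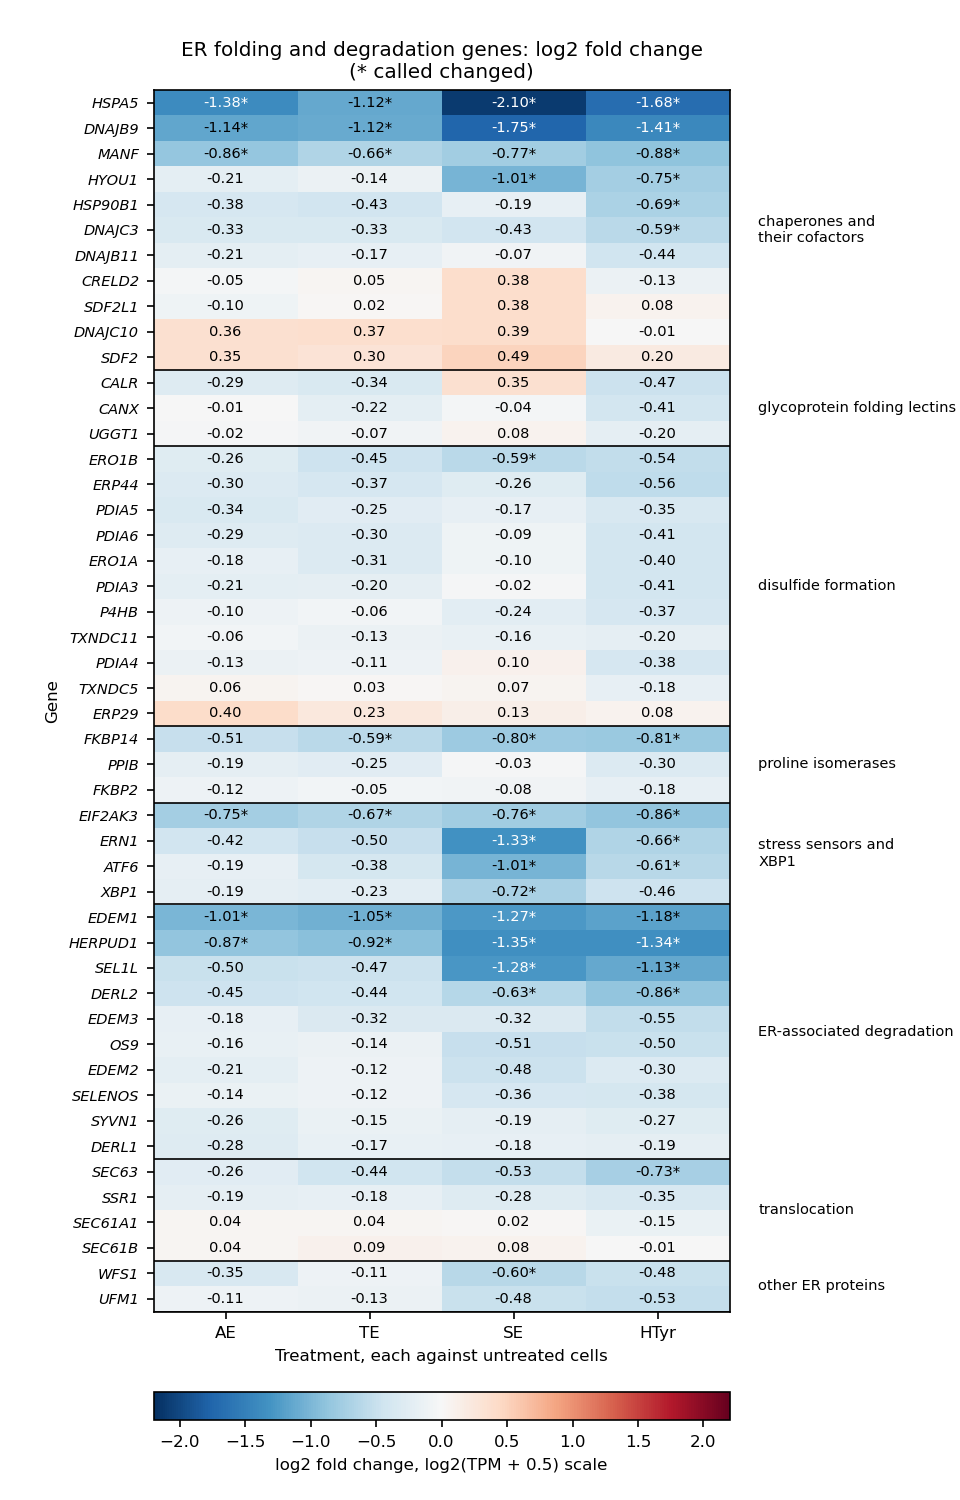
Log2 fold change (log2(TPM + 0.5) scale) of the 48 tested genes, as rows grouped by role, in each of the 4 treatments against untreated cells, as columns; blue is lower and red higher, and an asterisk marks a gene called by limma. HSPA5 with SE is the lowest cell at -2.10, and no red cell carries an asterisk.

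HSPA5 encodes BiP, the Hsp70 chaperone of the ER lumen, which also holds the stress sensors inactive (ENSG00000044574, chr9:125234853-125241382, minus strand, GRCh38). HSPA5 stood at 1939.9, 1599.8 and 1699 TPM in untreated cells, and the values were 555, 528 and 546 after HTyr, 405, 414 and 396 after SE, 839, 756 and 811 after TE and 679.7, 683 and 639 after AE. The 5 groups did not overlap, and the order from the highest was CTR, TE, AE, HTyr and SE. All 4 treated groups were below the untreated one, with log2 fold changes of -1.38 (AE), -1.12 (TE), -2.10 (SE) and -1.68 (HTyr) (standard error of each 0.06, limma adjusted p from 4.17e-11 with SE to 8.95e-08 with TE). AE and TE, neighbours in that order, were not called different at -0.27 (95% interval -0.40 to -0.13, limma adjusted p = 0.12).

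The promoter of HSPA5 is shown because it carries the ER stress element, a binding site of ATF6 and of the CCAAT-binding factor NF-Y, which is CCAAT and CCACG on the same strand with 9 bases between them. The stretch that ends at the gene's annotated start (chr9:125241383-125241593, minus strand, GRCh38, read from the genome, 211 bases) held 4 copies of CCAAT, counted on both strands, and 1 of CCACG, all in capitals; a copy on the other strand reads as its reverse complement.
HSPA5 upstream: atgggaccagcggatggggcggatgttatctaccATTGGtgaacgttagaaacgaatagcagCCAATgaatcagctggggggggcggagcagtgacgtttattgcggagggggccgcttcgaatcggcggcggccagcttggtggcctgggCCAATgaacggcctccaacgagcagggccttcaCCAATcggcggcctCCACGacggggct

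In the promoters that RefSeq lists (GRCh38.p14, 250 bases before to 50 after the start), 45 of the 49 members had an entry, and DERL1, DERL3, FKBP14 and PDIA3 had none. The whole element, searched on both strands, lay in the promoter of 7 of the 45 (15.6%), against 22 of 27305 promoters (0.0806%) and 14 of the 10543 promoters of tested genes (0.133%). It was searched as a site of ATF6, a sensor that raises these same genes, so the shares are a description and not a test. The 8 copies, 2 of them in HSP90B1, are given with 5 bases on each side, the strand named being the one on which the letters read, with CCAAT and CCACG in capitals.
HSPA5 (chr9:125241386-125241414, minus strand): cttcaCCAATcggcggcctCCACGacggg
HSP90B1 (chr12:103930211-103930239, plus strand): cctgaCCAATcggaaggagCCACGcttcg
HSP90B1 (chr12:103930316-103930344, minus strand): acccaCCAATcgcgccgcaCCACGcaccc
CRELD2 (chr22:49918549-49918577, minus strand): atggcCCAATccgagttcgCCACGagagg
CALR (chr19:12938379-12938407, minus strand): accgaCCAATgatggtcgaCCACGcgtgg
CANX (chr5:179698773-179698801, plus strand): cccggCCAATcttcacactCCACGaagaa
ERO1B (chr1:236282178-236282206, plus strand): ggcggCCAATgaggcgggaCCACGcgggc
XBP1 (chr22:28800598-28800626, minus strand): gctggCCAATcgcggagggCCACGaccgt

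The element was found in called and in uncalled members. Of the 17 members with a promoter entry that fell with at least 1 treatment, 4 held it (HSPA5, HSP90B1, ERO1B and XBP1), and of the 28 tested and not called, 3 did (CRELD2, CALR and CANX). Of the 6 that fell with all 4 treatments, HSPA5 was the only one with this form, on the same strand with 9 bases between the parts. Other spacings and strand arrangements of CCAAT and CCACG were not searched as a whole, so other forms of the element are not counted here. In HERPUD1, HYOU1 and SDF2L1 a CCAAT and a CCACG lay nearly adjoining on opposite strands. HERPUD1 fell with all 4 treatments, HYOU1 with SE and HTyr, and SDF2L1 was not called. CCAAT alone was in the promoters of 15 of the 17 lower members and 18 of the 28 others, with 35.7% of all promoters and 36.8% of those of tested genes holding it. CCACG alone was in 14 of 17 and 17 of 28, with 37.9% of all promoters and 50.5% of those of tested genes. Each whole element also counts as a copy of both. TGACGTGG, a site for ATF6 and XBP1, was in 3 of 45 member promoters against 0.795% of all and 0.986% of those of tested genes, and TTGCATCA, a composite site for ATF4 and its partners, in 1 of 45 against 0.923% and 0.531%. A match is a run of letters, and the stretches of CANX and HSP90B1 overlap exons of alternative GENCODE transcripts.

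Of the 11 chaperones and cofactors, 3 fell under AE, 3 under TE, 4 under SE and 6 under HTyr. As shares these were 27.3%, 27.3%, 36.4% and 54.5%, where 5.81%, 5.26%, 11% and 8.45% of all genes fell. DNAJB9 (ERdj4), a J-domain protein that brings unfolded chains to BiP and restrains IRE1, fell in every treatment. Per library, DNAJB9 was measured at 36.9, 36.6 and 35.8 TPM without treatment, 14.9, 17.5 and 16.3 for AE, 18.3, 15.7 and 15.7 for TE, 9.75, 12.01 and 9.93 for SE and 13.1, 14.1 and 12.9 for HTyr. The untreated libraries were above all others, and those with SE below those with AE, TE and HTyr. Its log2 fold changes were -1.14 (AE), -1.12 (TE), -1.75 (SE) and -1.41 (HTyr) (standard error 0.09, limma adjusted p of at most 1.43e-06).

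MANF, a secreted factor that binds BiP and protects stressed cells, fell to a like level in each treatment. From 186, 175 and 164 TPM in the 3 untreated libraries, MANF went to 110.1, 97.8 and 99.1 in those of SE, 95.4, 90.5 and 98.6 in those of HTyr, 102, 98.8 and 88.8 in those of AE and 116, 107 and 108 in those of TE. The 12 treated libraries lay below the untreated ones, and those of TE above those of AE and HTyr, at log2 fold changes between -0.66 and -0.88 (standard error 0.07, limma adjusted p of at most 1.17e-05). CRELD2, an ER resident protein that is induced by the same stress as MANF, was not called in any treatment, with -0.05 with AE and 0.38 with SE.

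HYOU1 (GRP170), the large Hsp70-like exchange factor of BiP, divided the treatments. The untreated libraries held 173, 179.8 and 173 TPM of HYOU1, against 174, 149 and 135 under AE, 153, 163 and 162 under TE, 90.4, 88.5 and 81.0 under SE and 108, 103.98 and 101 under HTyr. With AE and TE the libraries reached up to or close to the untreated level, and with SE and HTyr all lay below every other library. The log2 differences from untreated cells were -0.21 (AE), -0.14 (TE), -1.01 (SE) and -0.75 (HTyr) (standard error 0.08), with limma adjusted p of 1.05e-07 for SE and 6.92e-06 for HTyr.

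HSP90B1 (GRP94), the Hsp90 of the ER, kept the larger part of its level. HSP90B1 stood at 915, 818 and 756 TPM in untreated cells, and the values were 533, 475 and 529 after HTyr, 724, 743 and 711 after SE, 604, 638 and 603 after TE and 675, 634 and 604 after AE. All treated libraries were below the untreated ones, but only HTyr was called, at -0.69 (standard error 0.07, limma adjusted p = 5.45e-06), and SE gave -0.19. DNAJC3 (P58IPK), a cochaperone that also restrains PERK, was called with HTyr alone, at -0.59 (limma adjusted p = 2.81e-05). That call lay at the threshold and was lost without CTR replicate 1 (-0.56), without HTyr replicate 2 (-0.55), with a pseudocount of 1 (-0.58) and under both other scalings (-0.57 and -0.54).

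The other chaperones and cofactors were not called. DNAJB11 (ERdj3), a J-domain partner of BiP, was between -0.44 with HTyr and -0.07 with SE. DNAJC10 (ERdj5), a reductase that serves degradation, stood at 0.39 with SE and -0.01 with HTyr, and SDF2, an ER luminal protein, at 0.49 and 0.20. SDF2L1, a close relative of SDF2 that works with ERdj3, spread widely, from 26.1 to 41.7 TPM among the SE libraries. Its 0.38 with SE became a call of 0.59 without SE replicate 1, the only rise of a member against untreated cells in any setting with the fold threshold.

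**Figure D2:**
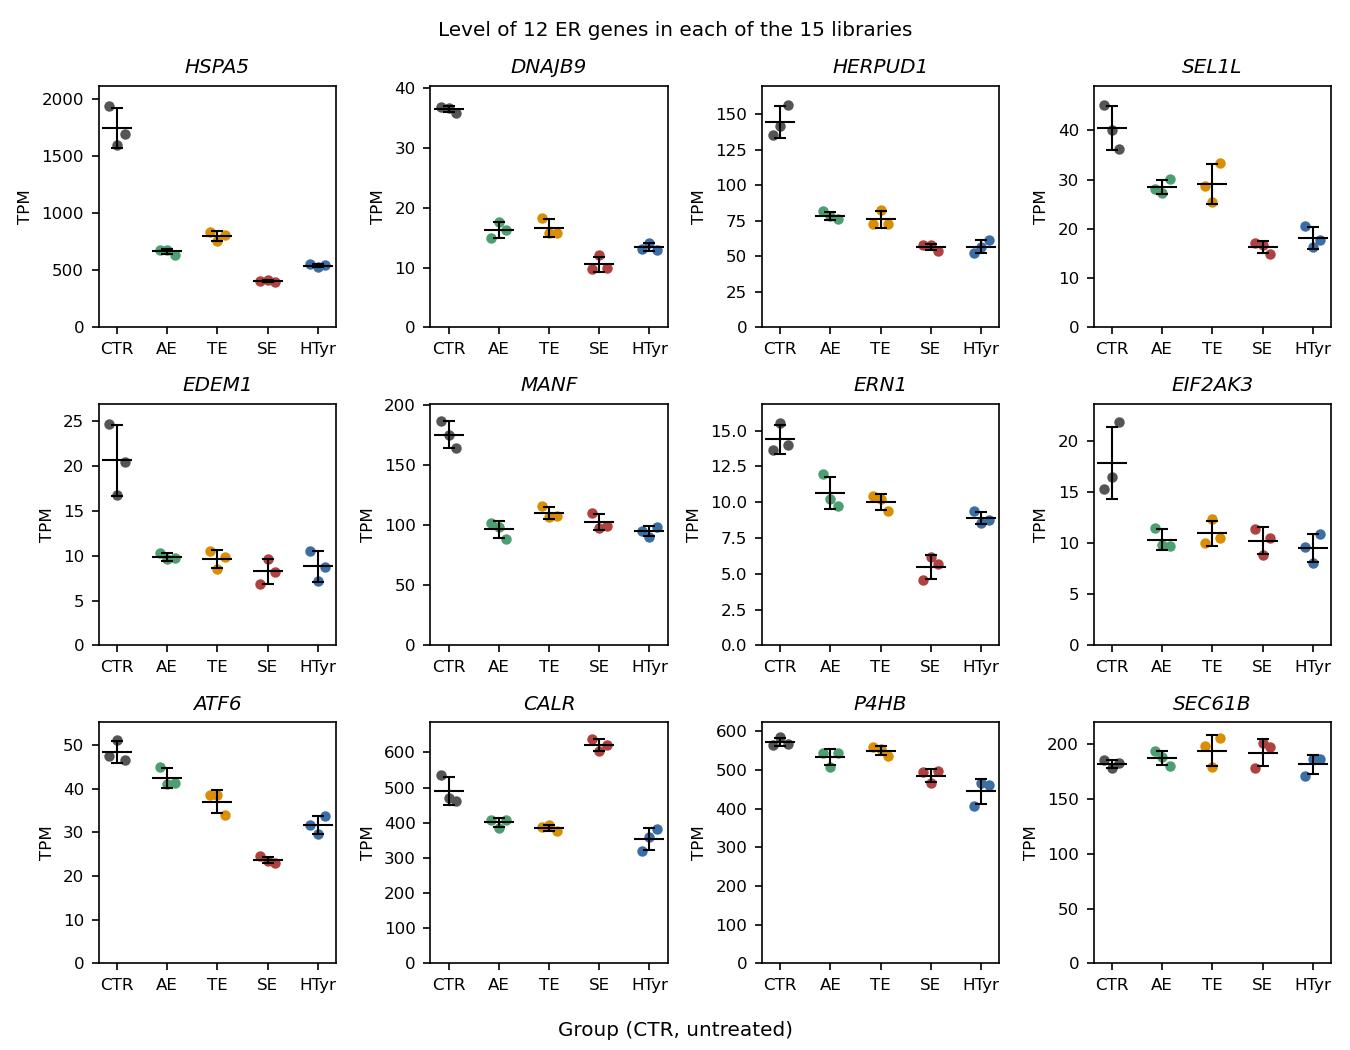
TPM of 12 genes in the 15 libraries, 3 per group; points are libraries, the long bar is the group mean and the error bar 1 SD, and each axis starts at 0. HSPA5 falls from 1600 to 1940 TPM in untreated libraries to 396 to 414 with SE, CALR is highest with SE at 605 to 638 TPM, and SEC61B stays between 171 and 205 TPM.

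Of the 3 lectin-cycle genes none was called against untreated cells, where 5.26% to 11% of all genes fell and 7.46% to 17% rose. CALR (calreticulin), the soluble lectin that also stores calcium, lay above untreated cells under SE and below them in the other treatments. Per library, CALR was measured at 536, 469.8 and 463 TPM without treatment, 408, 386 and 408 for AE, 388, 393 and 376 for TE, 638, 605 and 620.0 for SE and 320.2, 358 and 381 for HTyr. The SE libraries lay above every other library, and those of AE, TE and HTyr below every untreated one. The log2 fold changes were -0.29 (AE), -0.34 (TE), 0.35 (SE) and -0.47 (HTyr) (standard error 0.07), each with a limma adjusted p under 0.05 (from 0.000104 to 0.00406) and each under the fold threshold. CANX (calnexin), its membrane-bound counterpart, was between -0.41 with HTyr and -0.01 with AE, and UGGT1, the glucosyltransferase that sends misfolded glycoproteins back to the lectins, between -0.20 and 0.08.

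The 11 genes of disulfide formation gave 1 call in all, with SE. That is 9.09% of them, below the 11% of all genes that fell there. None fell under the other treatments, where 5.26% to 8.45% of all genes did. ERO1B, an oxidase that recharges the protein disulfide isomerases, fell with SE at -0.59 (standard error 0.13, limma adjusted p = 0.00206), from 7.04, 5.82 and 5.71 to 3.98, 3.61 and 4.17 TPM. The call was lost without CTR replicate 1 (-0.51), without SE replicate 2 (-0.54) and with a pseudocount of 1 (-0.54), and with HTyr it was called without CTR replicate 3 (-0.59) or HTyr replicate 1 (-0.65). Its paralog ERO1A was more abundant, at 48.6 ± 2.86 TPM (SD, n = 3) untreated, and was not called, with -0.10 with SE and -0.40 with HTyr.

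P4HB (PDI), the main disulfide isomerase, shows the small size of these differences. From 564, 586 and 567 TPM in the 3 untreated libraries, P4HB went to 495, 466 and 496 in those of SE, 407, 466 and 462 in those of HTyr, 545, 509 and 545 in those of AE and 559, 555 and 536 in those of TE. All 12 treated libraries lay below the untreated ones, with log2 fold changes of -0.10 (AE), -0.06 (TE), -0.24 (SE) and -0.37 (HTyr) (95% interval -0.22 to 0.01 for AE). PDIA3 (ERp57), PDIA4 and PDIA6, isomerases that work with the lectins or with BiP, were lowest with HTyr at -0.41, -0.38 and -0.41 and nearest to untreated cells with SE at -0.02, 0.10 and -0.09. PDIA5, a less abundant isomerase, was lowest at -0.35 with HTyr. PDIA3 may share reads with the pseudogene PDIA3P1, which was read at 3.63 to 6.49 TPM against at least 226 for the gene.

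ERP44, which retains ERO1 oxidases and immature proteins in the early secretory pathway, came close to the threshold with HTyr at -0.56 (limma adjusted p = 0.000828). It was called there without CTR replicate 3 (-0.62), without HTyr replicate 1 (-0.60) or without HTyr replicate 3 (-0.61). ERP29, a redox-inactive relative of the isomerases, was above untreated cells by 0.40 with AE (limma adjusted p = 2.67e-05) and 0.08 with HTyr, under the fold threshold. TXNDC5, a thioredoxin-domain isomerase, and TXNDC11, a membrane-bound thioredoxin-domain protein, stayed within -0.18 to 0.07 and -0.20 to -0.06.

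Among the 3 proline isomerases, FKBP14, which acts on procollagens, fell with TE, SE and HTyr. The untreated libraries held 17.7, 19.8 and 16.7 TPM of FKBP14, against 13.4, 12.6 and 11.5 under AE, 10.2, 13.9 and 11.6 under TE, 11.4, 10.1 and 8.99 under SE and 11.4, 8.77 and 10.1 under HTyr. The treated libraries lay below the untreated ones, and those of TE overlapped with each other treatment, with log2 fold changes of -0.51 (AE), -0.59 (TE), -0.80 (SE) and -0.81 (HTyr) (standard error 0.13, limma adjusted p of at most 0.00582). The TE call was lost without CTR replicate 2 (-0.52), TE replicate 1 (-0.49) or TE replicate 3 (-0.58), and with a pseudocount of 1 (-0.57). With AE a call was gained under median-ratio scaling (-0.60) and quantile normalization (-0.59). PPIB (cyclophilin B) was the most abundant of the 3, at 654 ± 13.4 TPM (SD, n = 3) untreated, and was between -0.30 with HTyr and -0.03 with SE. FKBP2, a small luminal isomerase, was between -0.18 and -0.05.

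Of the 3 stress sensors and XBP1, 1 fell under AE, 1 under TE, all 4 under SE and 3 under HTyr. Over all genes, 5.81%, 5.26%, 11% and 8.45% fell in these comparisons. EIF2AK3, the kinase PERK that slows translation, fell in all treatments. EIF2AK3 stood at 15.3, 16.5 and 21.9 TPM in untreated cells, and the values were 9.66, 8.12 and 10.9 after HTyr, 11.5, 8.91 and 10.5 after SE, 10.0, 12.3 and 10.5 after TE and 11.5, 9.81 and 9.74 after AE. No treated library reached an untreated one, and the treated groups overlapped, with log2 fold changes of -0.75 (AE), -0.67 (TE), -0.76 (SE) and -0.86 (HTyr) (standard error 0.15, limma adjusted p of at most 0.00286). CTR replicate 3 was the highest of its group, and without it the TE value was -0.52 and no longer called.

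ERN1, the kinase and nuclease IRE1 that splices XBP1 mRNA, fell with SE and HTyr. Per library, ERN1 was measured at 13.6, 15.5 and 14 TPM without treatment, 11.9, 10.2 and 9.74 for AE, 10.4, 10.2 and 9.37 for TE, 4.54, 6.14 and 5.68 for SE and 9.38, 8.57 and 8.78 for HTyr. The SE libraries lay below every other library, and all treated libraries below the untreated ones. In log2 terms the changes were -0.42 (AE), -0.50 (TE), -1.33 (SE) and -0.66 (HTyr) (standard error 0.11), with limma adjusted p of 2.2e-07 for SE and 0.000315 for HTyr.

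ATF6, the membrane-bound transcription factor that is released by cleavage, fell with SE and HTyr. From 47.5, 51.2 and 46.5 TPM in the 3 untreated libraries, ATF6 went to 24.5, 23.5 and 23.1 in those of SE, 31.6, 29.6 and 33.7 in those of HTyr, 45.0, 41.1 and 41.2 in those of AE and 38.5, 38.6 and 34.0 in those of TE. SE was lowest and HTyr next, without overlap, and AE and TE were nearer to the untreated libraries. The log2 fold changes were -0.19 (AE), -0.38 (TE), -1.01 (SE) and -0.61 (HTyr) (standard error 0.07), with limma adjusted p of 4.87e-08 for SE and 1.96e-05 for HTyr. The HTyr call was lost without CTR replicate 2 (-0.57), without HTyr replicate 2 (-0.56) and under both other scalings (-0.58 in each).

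XBP1, the transcription factor that drives chaperone and degradation genes once its mRNA is spliced, fell with SE alone at -0.72 (standard error 0.10, limma adjusted p = 5.1e-05). The untreated libraries held 94.3, 75.2 and 89.4 TPM of XBP1, against 70.2, 79.8 and 76.1 under AE, 76.4, 69.4 and 73.3 under TE, 43.6, 57.6 and 56.2 under SE and 63.7, 61.0 and 62.8 under HTyr. The SE and HTyr libraries lay below every untreated one, while AE and TE overlapped with CTR replicate 2. The gene's TPM take spliced and unspliced mRNA together, so splicing was not measured.

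Of the 10 degradation genes that passed the filter, 2 fell under AE, 2 under TE, 4 under SE and 4 under HTyr. As shares these were 20%, 20%, 40% and 40%, against 5.81%, 5.26%, 11% and 8.45% of all genes. HERPUD1 (HERP), a membrane protein that assembles the HRD1 ubiquitin ligase complex, was among the members with the largest falls (ENSG00000051108, chr16:56932142-56944864, plus strand, GRCh38). HERPUD1 stood at 135, 142 and 157 TPM in untreated cells, and the values were 52.1, 56.9 and 61.3 after HTyr, 57.8, 57.7 and 53.9 after SE, 72.7, 82.7 and 72.8 after TE and 81.7, 78.2 and 76.05 after AE. AE and TE overlapped with each other, as did SE and HTyr, and the untreated libraries stood apart. Its log2 fold changes were -0.87 (AE), -0.92 (TE), -1.35 (SE) and -1.34 (HTyr) (standard error 0.07, limma adjusted p of at most 1.43e-06).

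SEL1L, the adaptor that brings substrates to the same ligase, showed a like grouping. Per library, SEL1L was measured at 45.1, 40.1 and 36.3 TPM without treatment, 28.2, 27.2 and 30.1 for AE, 28.7, 25.4 and 33.3 for TE, 17.2, 16.7 and 14.97 for SE and 20.7, 16.3 and 17.6 for HTyr. With SE and HTyr all libraries lay below those with AE and TE, which in turn lay below the untreated ones. On the log2 scale these were -0.50 (AE), -0.47 (TE), -1.28 (SE) and -1.13 (HTyr) (standard error 0.11), called for SE (limma adjusted p = 4.6e-07) and HTyr (5.28e-06). With AE it was called under median-ratio scaling and quantile normalization, at -0.59 in each. SYVN1, the ligase HRD1 itself, was not called and was lowest at -0.27 with HTyr (95% interval -0.52 to -0.02).

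EDEM1, which marks misfolded glycoproteins by trimming their mannose, fell in all treatments. From 24.8, 16.8 and 20.4 TPM in the 3 untreated libraries, EDEM1 went to 6.88, 9.64 and 8.24 in those of SE, 10.6, 7.14 and 8.74 in those of HTyr, 10.3, 9.59 and 9.71 in those of AE and 10.6, 8.54 and 9.81 in those of TE. The treated groups overlapped with one another and not with the untreated one, which itself ranged from 16.8 to 24.8 TPM. The log2 fold changes were -1.01 (AE), -1.05 (TE), -1.27 (SE) and -1.18 (HTyr) (standard error 0.16, limma adjusted p of at most 0.000219). Its relatives EDEM2 and EDEM3, which act on the same sugar chains, were not called, at -0.48 and -0.32 with SE and -0.30 and -0.55 with HTyr. EDEM3 would have been called with HTyr without CTR replicate 2 (-0.61) or HTyr replicate 1 (-0.59).

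DERL2, a derlin of the degradation channel, fell with SE at -0.63 and with HTyr at -0.86 (standard error 0.10, limma adjusted p = 0.000149 and 2.49e-05). The untreated libraries held 59.95, 60.1 and 57.9 TPM of DERL2, against 43.5, 40.9 and 45.4 under AE, 45.2, 42.7 and 43.3 under TE, 36.5, 38.5 and 39.1 under SE and 25.9, 34.9 and 37.6 under HTyr. All treated libraries lay below the untreated ones, and HTyr replicate 1 was the lowest of all. Without it the mean of the 4 treatments was -0.56 and not called. DERL1, its paralog, OS9, a lectin of the ligase complex, and SELENOS, a selenoprotein that binds the derlins, were not called. OS9 was at -0.51 with SE, which became a call under median-ratio scaling (-0.62) and quantile normalization (-0.69), and at -0.50 with HTyr. The values for SE and HTyr were, for SELENOS, -0.36 and -0.38 and, for DERL1, -0.18 and -0.19.

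The 4 translocation genes gave 1 call, and so did the remaining 2 ER proteins. Those were 25% with HTyr (8.45% of all genes fell) and 50% with SE (11%), each a single gene of a short list. SEC63, which couples the channel to BiP, fell with HTyr at -0.73 (standard error 0.13, limma adjusted p = 0.000542), from 42.9, 36.8 and 35.8 to 26.4, 19.7 and 23.3 TPM. With SE it was at -0.53, and was called there under median-ratio scaling (-0.64) and quantile normalization (-0.63). The channel subunits themselves stayed near the untreated level, SEC61A1 at 124 ± 2.10 TPM untreated and 126 ± 4.67 with SE, and SEC61B at 182 ± 3.60 and 192 ± 12.5 (SD, n = 3 each). For SEC61B the log2 fold change of the mean of the 4 treatments had a 95% interval of -0.06 to 0.16. SSR1, a subunit of the translocon-associated complex, was between -0.35 and -0.18.

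WFS1 (wolframin), a membrane protein of ER calcium balance, fell with SE at -0.60 (standard error 0.13, limma adjusted p = 0.00129), from 13.3, 15.1 and 14.4 to 9.94, 8.88 and 8.86 TPM. The call was lost without CTR replicate 2 (-0.56), SE replicate 2 (-0.58) or SE replicate 3 (-0.58), and with a pseudocount of 1 (-0.58). With HTyr it was called without HTyr replicate 2 (-0.60). UFM1, a ubiquitin-like modifier attached at the ER surface, was at -0.48 with SE and -0.53 with HTyr, and was not called except with SE under median-ratio scaling (-0.59).

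Summed over the 49 genes, the TPM were 7753 ± 323 in untreated libraries, 5893 ± 133 under AE, 5932 ± 67.1 under TE, 5837 ± 25.7 under SE and 4983 ± 156 under HTyr (SD, n = 3). The 12 treated libraries reached at most 6046, below the lowest untreated one at 7559. HSPA5 made up a large part of that gap. Without it the sums were 6006 ± 165 untreated, 5226 ± 123 under AE, 5130.0 ± 89.4 under TE, 5432 ± 17.4 under SE and 4440.2 ± 155 under HTyr, and the treated libraries still lay below the untreated ones.

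**Figure D3:**
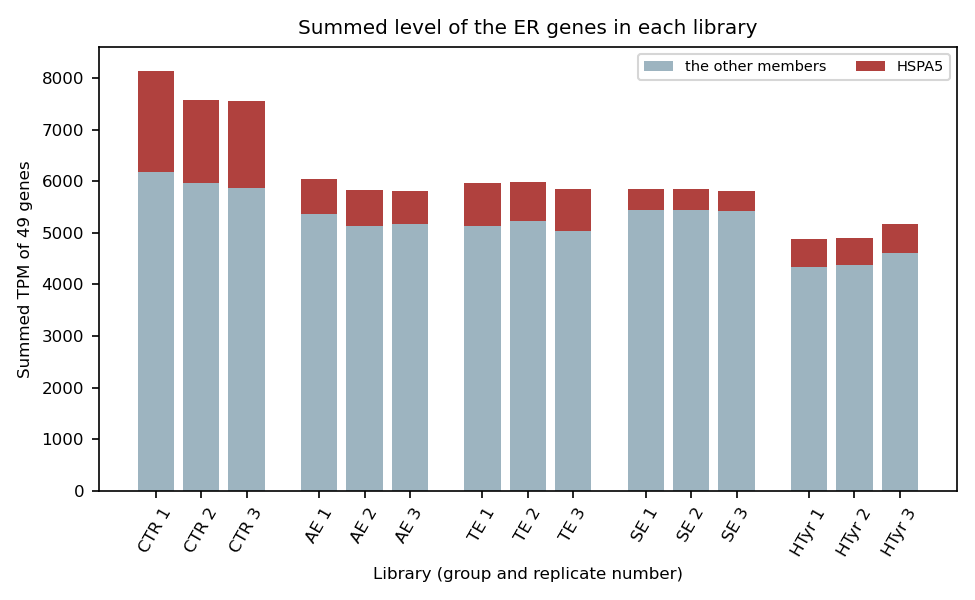
Summed TPM of the 49 genes in each of the 15 libraries, divided into HSPA5 (red) and the other members (grey), with the axis starting at 0. The 3 untreated libraries sum to 7559 to 8125 TPM and the 12 treated ones to 4883 to 6046, and both parts of the bars are lower in the treated libraries.

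The treatments were then compared with each other. Between AE and TE no member was called in either direction by limma (0.0537% and 0.0336% of all genes), 3 being higher and 2 lower with AE at an unadjusted p under 0.05 (8.9% and 2.94% of all genes). The differences ranged from -0.27 for HSPA5 to 0.21 for CANX (95% interval 0.04 to 0.37).

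SE was set against each of the other extracts, in 2 comparisons that share its libraries. Against AE, 6 members were lower and 1 higher, where 2.78% and 1.94% of all genes were, and against TE 6 and 1, where 3.66% and 4.7% were. In each, the lower genes were HSPA5, HYOU1, DNAJB9, ATF6, ERN1 and SEL1L, and the higher one was CALR. HYOU1 differed by -0.80 and -0.88 against AE and TE, ATF6 by -0.83 and -0.63, and SEL1L by -0.79 and -0.81. The largest difference against AE was -0.91 for ERN1 (standard error 0.11, limma adjusted p = 6.4e-05), and against TE -0.98 for HSPA5 (standard error 0.06, limma adjusted p = 2.39e-07). For CALR the differences were 0.63 against AE and 0.69 against TE (standard error 0.07).

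Some of these calls lay near the threshold. DNAJB9 differed by -0.60 against AE and -0.63 against TE. The first was not called without AE replicate 2 (-0.55), SE replicate 1 (-0.55) or SE replicate 3 (-0.56), nor with a pseudocount of 1 or array weights (-0.58 in each). The second was not called without TE replicate 1 (-0.56) or SE replicate 1 (-0.58). CALR against AE was 0.56 and not called after quantile normalization. XBP1, at -0.53 against AE, was called without SE replicate 2 (-0.60), and SDF2L1, at 0.48, without SE replicate 1 (0.68).

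**Figure D4:**
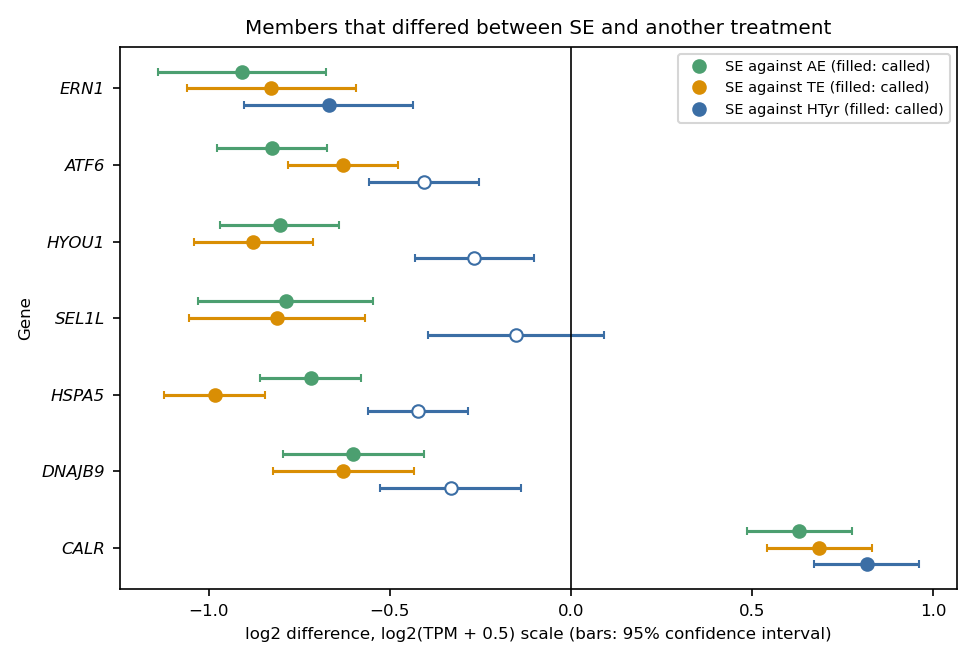
Log2 difference (log2(TPM + 0.5) scale) of the 7 genes called between SE and another extract, as SE minus AE, TE or HTyr; bars are 95% confidence intervals from limma, and filled points were called. CALR is the only gene to the right of 0, at 0.63 to 0.82, and ERN1 and CALR are the only filled points against HTyr.

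Each extract was also set against HTyr. AE was called higher in 1 member, SEL1L at 0.64, and lower in none, with 0.899% and 0.443% of all genes. TE was higher in 2, SEL1L at 0.66 and HYOU1 at 0.61, and lower in none, with 0.443% and 0.262% of all genes. SE was higher in 1, CALR at 0.82 (standard error 0.07, limma adjusted p = 2.4e-06), and lower in 1, ERN1 at -0.67 (standard error 0.11, limma adjusted p = 0.000489), with 4.97% and 2.38% of all genes. HERPUD1 did not differ between SE and HTyr beyond its error, at -0.0047 (95% interval -0.17 to 0.16). At an unadjusted p under 0.05 with no limit on the fold, limma gave 31 members higher and 0 lower with AE than with HTyr, where 22.8% and 3.38% of all genes were. It gave 27 and 0 with TE (14.9% and 4.75% of all genes) and 19 and 7 with SE (30.1% and 8.96%). All genes thus leaned the same way as the members.

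These small differences depend on libraries and scaling. SEL1L was not called between AE and HTyr without HTyr replicate 2 (0.56), nor between TE and HTyr without TE replicate 3 (0.56), and ERN1 was not called between SE and HTyr without SE replicate 1 (-0.55). Under median-ratio scaling and quantile normalization, SEL1L was not called between AE and HTyr (0.51 and 0.49), nor HYOU1 between TE and HTyr (0.54 and 0.58). After quantile normalization SEL1L was not called between TE and HTyr either (0.58), while HSPA5 was (0.62). In a fit of only the groups compared, SEL1L was not called between HTyr and AE or TE. HYOU1 was called between AE and HTyr without AE replicate 3 (0.62), and HSPA5 between TE and HTyr without TE replicate 2 (0.60). Median-ratio scaling shifted the median of all genes by -0.12 for AE against HTyr and by -0.13 for SE against HTyr, and the member median of the latter went from 0.11 to -0.03. Under it the calls over all genes turned from 134 higher and 66 lower to 34 and 83 for AE, from 66 and 39 to 31 and 56 for TE, and from 741 and 355 to 323 and 561 for SE. For SE against TE they turned from 700 and 546 to 510 and 667, and for AE against TE from 8 and 5 to 5 and 7. By TPM, HTyr gave the lowest value of the 4 treatments in 33 of 48 members and SE in 13, but after median-ratio scaling in 17 and 21 and after quantile normalization in 19 and 22. How often each treatment was lowest is not given over all genes. Their median log2 difference from HTyr by TPM was 0.12 for AE, 0.07 for TE and 0.13 for SE.

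The members were read beside 8 lists of other secretory pathway and chaperone genes, 210 of whose 214 genes passed the filter. In the mean of the 4 treatments 10.4% of all genes rose and 7.43% fell, and the members' median was -0.28. It was 0.04 for other folding enzymes and KDEL receptors, of which 3 of 38 rose and 3 fell (7.89% each). CRELD1, a relative of CRELD2, fell by 0.88 on the log2 scale and HSPA13, an Hsp70 of microsomes, by 0.60, while TOR1A, an AAA+ protein of the ER lumen, rose by 0.64.

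The genes that add and trim N-linked sugars had a median of 0.03, with 2 of 26 higher and none lower. The share higher, 7.69%, was below the 10.4% of all genes. ALG1, a mannosyltransferase of the sugar donor, was at 1.09 and ALG6, a glucosyltransferase, at 0.60, while ALG8, which adds the next glucose, was not called at 0.33. Other translocation and signal peptide genes had a median of 0.00, with 2 of 25 higher (8%, also below that of all genes) and none lower. GET3, which delivers tail-anchored proteins, was at 0.77 and SRP9, a signal recognition particle subunit, at 0.78, and SEC11A, a signal peptidase subunit, was not called at 0.39.

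Other degradation genes had a median near 0, with 3 of 36 higher and 2 lower. Those shares, 8.33% and 5.56%, were below the 10.4% and 7.43% of all genes. TMEM129, an ER ubiquitin ligase, was at 1.24 and UFD1, a cofactor of the extraction motor, at 0.70. YOD1, a deubiquitinase of that motor, was at -1.13 and DNAJB2, a cytosolic J-domain protein, at -0.97. Of the 8 UFMylation enzymes 1 rose (12.5%, near the 10.4% of all genes) and none fell, with a median of -0.09. It was UFSP1, a UFM1 protease, at 0.76, while UFSP2 at -0.55 and UFC1 at 0.21 were not called.

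The COPII coat and cargo receptors, which carry folded proteins out of the ER, had a median of -0.24. Of the 26, 3 were lower (11.5%, against 7.43% of all genes) and none higher (10.4% of all genes). SEC24D, a cargo-binding coat subunit, was at -1.17 and LMAN1, a mannose lectin, at -0.60, and SEC23A was not called at -0.35. The third lower gene was the coat subunit SEC31A.

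The other stress-response regulators had a median of 0.08, with 5 of 20 lower (25%, against 7.43% of all genes) and 2 higher (10%, against 10.4%). DDIT3 (CHOP), the death-linked factor downstream of PERK, went from 478 ± 46.6 TPM untreated to 168 ± 18.5 under AE, 181 ± 15.9 under TE, 41.2 ± 5.05 under SE and 168 ± 12.8 under HTyr (SD, n = 3). ATF3, a stress-induced factor, fell by 1.65 and PPP1R15A (GADD34), which restores translation, by 1.29 on the log2 scale. CREB3L4, a membrane-bound factor, was at 0.68 and NFYB, a subunit of the CCAAT-binding factor, at 0.66.

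The cytosolic chaperones had a median of 0.42, with 8 of 31 higher (25.8%, against 10.4% of all genes) and none lower (7.43% of all genes). HSPA8, the constitutive cytosolic Hsp70, went from 429.9 ± 19.2 TPM untreated to 732 ± 52.1 under AE, 811 ± 62.0 under TE, 1587 ± 42.1 under SE and 634 ± 65.7 under HTyr (SD, n = 3). DNAJA1, its J-domain partner, was at 0.82 and HSP90AB1, a cytosolic Hsp90, at 0.68. With SE 23 of the 31 rose (17% of all genes did), with AE 7 (10.7%), with TE 4 (7.46%) and with HTyr 1 (7.8%). The share with HTyr, 3.23%, was below that of all genes. None fell in any, where 11%, 5.81%, 5.26% and 8.45% of all genes did. Of the ER chaperones, HSPA5, DNAJB9 and HSP90B1 stood at -2.10, -1.75 and -0.19 with SE. The 11 ER chaperones and cofactors did not all fall with SE. There 4 were called lower and 0 higher, where 11% and 17% of all genes were. Their log2 fold changes ran from -2.10 to 0.49, with a median of -0.19.

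**Figure D5:**
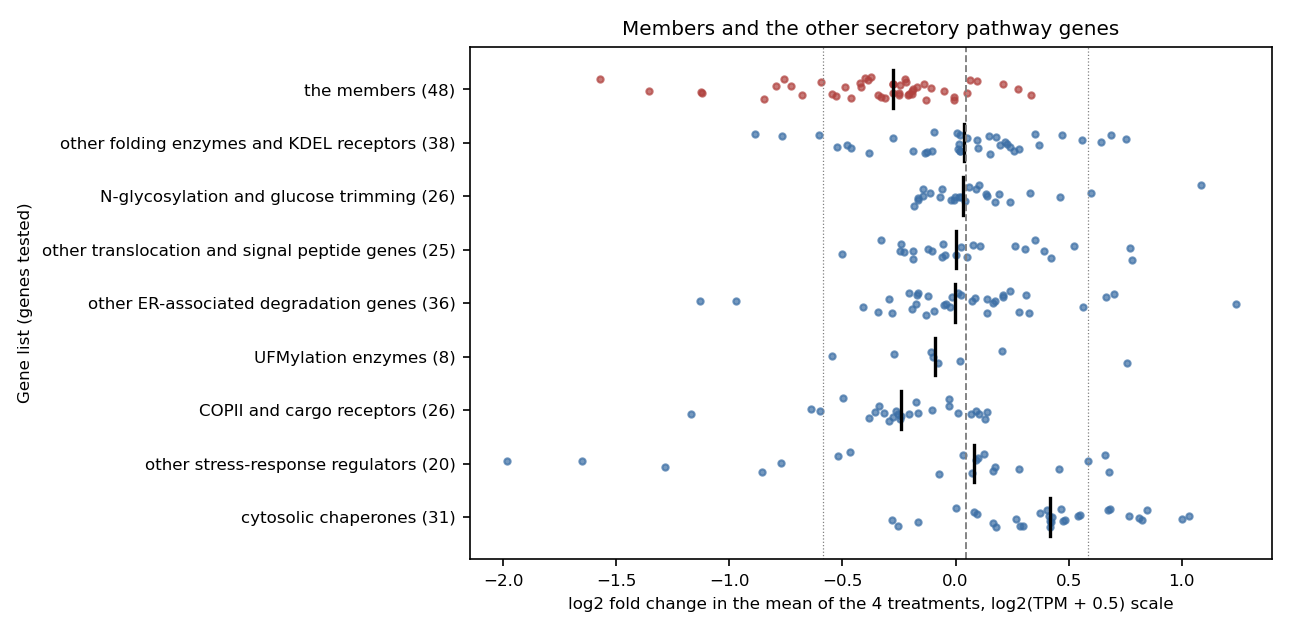
Log2 fold change (log2(TPM + 0.5) scale) of each tested gene in the mean of the 4 treatments against untreated cells, for the members (red) and 8 further lists (blue); black bars are list medians, the dashed line is the median of all 14899 genes and the dotted lines the fold threshold. The member median lies at -0.28 and that of the cytosolic chaperones at 0.42.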

How the data were processed

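HCT116 cells were sequenced as stranded poly(A) libraries. Per the study's methods, the authors trimmed reads with Scythe and Sickle, aligned them to GRCh38 with STAR and quantified genes with RSEM (the sources used here give no tool versions). The authors deposited TPM per gene and library, rounded to 2 decimals, with no counts, so a count model was not used. Here the 14899 of 60664 genes that reached 1 TPM in 3 or more of the 15 libraries were tested on log2(TPM + 0.5) with limma 3.58.1 (R 4.3.3, mean-variance trend, all 5 groups in 1 fit, 10 residual degrees of freedom) and Benjamini-Hochberg adjustment. The step was tested on simulated data, of which no result is given here. Samples were grouped by their descriptions. p-values measure the spread between these libraries, which may be partly technical. Coordinates and symbols came from GENCODE 44. Members, gene lists and tests were chosen with earlier results of these data known. Every member is named, and from each further list the 3 genes of lowest adjusted p when the treatments were averaged, plus at most 2 called genes against the list's larger direction. SEC31A was named after its value was seen. Pseudocounts, filters, scalings, weights, the replicate block and leaving out each library were tried as alternatives. Protein sequences were not used here.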

Additional observations from a re-analysis of the deposited data

How the results depend on the processing

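No member value changed direction past the threshold under any alternative. Of 528 member values (48 genes in 11 comparisons), 497 kept their call under every alternative tried and 31 changed it under at least 1, with 41 losses and 27 gains of a call among the changes. Pseudocounts, filters, a fit without the mean-variance trend and array weights left each count of called members within 1.5 times its value.

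Without the fold threshold, limma called 25 members lower and 3 higher with AE (14% and 25.8% of all genes), 23 and 3 with TE (13.7% and 20.3%), 25 and 5 with SE (20.5% and 31.5%), 37 and 0 with HTyr (21.5% and 17.9%) and 35 and 3 in the mean of the 4 treatments (21.3% and 28.6%). Between treatments it then called 19 higher for AE (8.06% of all genes) and 12 for TE (2.32%) against HTyr, with none lower in either (1.06% and 0.973% of all genes). SE then had 5 lower and 16 higher members against HTyr (6.17% and 22%), 12 and 6 when set against AE (7.71% and 9.81%) and 14 and 7 when set against TE (9.24% and 17.2%). Asking for an absolute log2 fold change over 1 left 3 members lower with AE (1.87% of all genes), 3 with TE (1.5%), 8 with SE (4.48%), 5 with HTyr (1.93%) and 4 in the mean (2.05%), and 0 differed between treatments. Median-ratio scaling, quantile normalization and a fit of only the groups compared each gave 0 members for AE against HTyr and 1 for TE against HTyr, and quantile normalization gave 0 higher for SE against AE; the cause was not tested.

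Leaving out each library in turn gave 6 lower members with AE each time, 6 to 7 with TE, 13 to 15 with SE, 14 to 18 with HTyr and 9 to 10 in the mean, and 0 to 1 higher with SE. Between treatments it gave 0 to 2 higher for AE and 1 to 3 for TE against HTyr, 0 to 1 lower and 1 higher each time for SE against HTyr, 5 to 7 lower and 1 to 2 higher for SE against AE, and 5 to 6 lower and 1 higher each time for SE against TE. Against HTyr, AE lost its call without HTyr replicate 2 and had 2 without AE replicate 3, TE had 1 without TE replicate 3 and 3 without TE replicate 2, and SE had 0 lower without SE replicate 1. Without SE replicate 1, SE also had 1 higher against untreated cells and 2 against AE. Shares over all genes are not given for these fits, so the counts describe the members alone.

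The replicate numbers did not pair the libraries. Deviations of same-numbered libraries correlated at -0.21 to 0.26 over 30 pairs, with 3 over 0.1, and 4 of 15 libraries matched best with their own number. With the replicate block, 6 members were lower with AE, 7 with TE, 15 with SE, 15 with HTyr and 10 in the mean, as without it. The shares over all genes are not given for that fit. The depth of the libraries is unknown from TPM, so the precision of low genes such as ERO1B could not be set against counting error.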
